A study of Rattus norvegicus with 18 samples.

Results

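Neuropeptide Y (NPY) and pituitary adenylate cyclase-activating polypeptide (PACAP) were followed here through 8 genes, which encode both peptides and 6 of their receptors, out of 38445 genes counted in the dorsal hippocampus of 18 adult male Sprague-Dawley rats. The genes were Npy, its receptor genes Npy1r, Npy2r and Npy5r, Adcyap1 (the PACAP precursor), its own receptor gene Adcyap1r1, and Vipr1 and Vipr2, whose receptors bind PACAP and vasoactive intestinal peptide (VIP). They were chosen by symbol for their TMM CPM by treatment, the normalized level explained below, with no threshold on the values and with results of these data known, so the group differences below are descriptions and support nothing independently. RNA-Seq was run on 6 control rats, 6 ethanol rats and 6 withdrawal rats, 1 library per rat. Control rats received liquid diet without ethanol. Ethanol rats received Lieber-DeCarli liquid diet with 9% (v/v) ethanol and had 0 h of withdrawal. Withdrawal rats received the same ethanol diet and were then fed the control diet in its place for 24 h. The liquid diet was the rats' sole food and drink. Ethanol was introduced gradually, after which the 9% diet ran for 15 days, with 1 further day in ethanol rats. The rats were pair fed and housed singly. The comparisons cover male rats of 1 strain and 1 brain region only.

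NPY is a small peptide released mainly by GABAergic interneurons in the hippocampus, where it dampens glutamate release and is known for its anticonvulsant action. Its receptors couple to inhibitory G proteins, with Y1 found largely on the postsynaptic side and Y2 on axon terminals, where it limits transmitter release. PACAP acts in the opposite direction on cyclic AMP: its receptor PAC1 (Adcyap1r1) prefers PACAP, while VPAC1 (Vipr1) and VPAC2 (Vipr2) bind PACAP and VIP alike, and all of them can stimulate adenylyl cyclase. Both peptides are studied as regulators of stress, anxiety and alcohol drinking.

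The libraries held 30873228 to 42679748 counts on genes. Levels are given as TMM CPM, that is, counts relative to the library's total on genes, scaled by the trimmed mean of M values, and CPM of different genes are compared only per kb of exon. Hippocampal genes of the marker lists were counted unevenly. Wfs1 of CA1 neurons had 271 ± 39.3 CPM and Prox1 of dentate granule cells 129 ± 11.8 CPM in control rats (SD, n = 6). Fibcd1 of the CA1 and CA2 list, Tdo2 of the dentate list and Iyd of the CA3 list were almost uncounted and not tested. Their control means were 0.0139, 0.0534 and 0.138 CPM. Summed marker levels differed between rats of a group. Withdrawal rat 5 was the lowest withdrawal rat for CA1 and CA2 (431 CPM against a group median of 828), CA3 (83.4 against 137) and dentate markers (261 against 355), and the highest for interneuron markers (1246 against 917). Ethanol rat 1 held the highest sum of the 5 thalamus markers (1243 CPM against a group median of 309). Withdrawal rat 1 held the highest sum of the 13 activity-regulated genes (1103 CPM against a median of 413). Other rats were also far from their group medians on single lists: ethanol rat 5 had 805 CPM of the activity-regulated genes against a median of 339, and withdrawal rats 4 and 5 had 26.3 and 26.2 CPM of choroid plexus markers against a median of 1355. Calls of the listed genes are also given from a fit without withdrawal rats 1 and 5, and fits that leave out each rat in turn are given for the members. The libraries also carried 3 index sets: all control rats had set 1, all ethanol rats and withdrawal rats 1 and 2 had set 2, and withdrawal rats 3 to 6 had set 3. Control and treated rats therefore cannot be told apart from index set.

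Npy itself was almost uncounted. The gene (gene ID 24604, Rnor_6.0 chromosome 4, 79557856 to 79565059, plus strand, 567 bases of exon) received 1 count in all 18 rats, from control rat 5, and 17 rats had 0 counts. A count of 0 allows up to 3 counts, or 0.0703 to 0.0972 CPM depending on the library, counting error only. Npy therefore did not pass the filter on low counts, and 7 of the 8 genes were tested. A second row of the deposited annotation lies 3' of Npy on the same strand, with gene ID 100912228 and no match in the table of gene names used here, at 79573999 to 79581212, and it also received 1 count in all 18 rats. Its exons measure 107, 188, 81 and 202 bases, those of Npy 96, 188, 81 and 202 bases, and the gaps between them are 792, 4091 and 1753 bases against 792, 4092 and 1753 bases. The drawing of exon positions shows that the exons of the 2 rows lie at the same distances. Read pairs that map to several places were not counted by the authors. The sequences of the 2 rows were not compared, and their part in the low count was not tested. The counts thus measured no level of Npy mRNA in any group, and the near absence of counts is not evidence that the tissue lacked it.

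**Figure D1:**
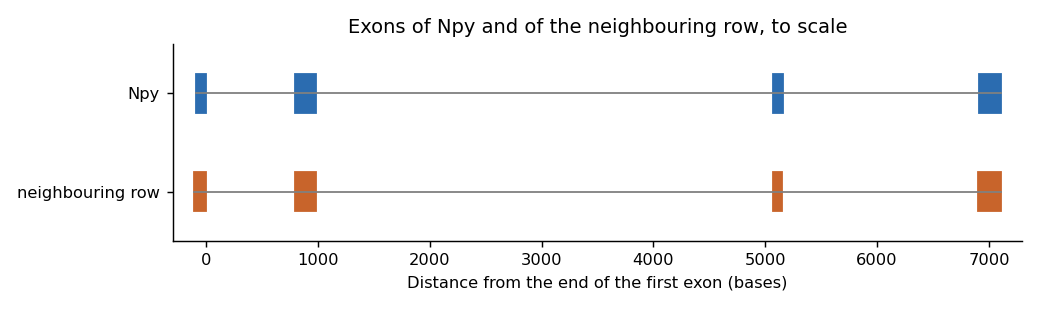
Exons (boxes, to scale) of Npy and of the neighbouring row of the deposited annotation, against distance in bases from the end of the first exon. The last 3 exons of the rows have equal lengths, and the gaps differ by at most 1 base.

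Adcyap1, which encodes the PACAP precursor (gene on Rnor_6.0 chromosome 9, 121705897 to 121725736, minus strand), had its highest levels among withdrawal rats. Control rats ranged from 12.6 to 28.4 CPM with a median of 22.3, ethanol rats from 14.3 to 26.1 with a median of 17.6, and withdrawal rats from 18.4 to 56.2 with a median of 28.5. The groups overlapped, since 3 of 6 withdrawal rats lay above all control rats and the lowest withdrawal rats lay inside the control range. Group means were 21.03 ± 6.49, 19.4 ± 5.24 and 30.8 ± 14.0 CPM in control, ethanol and withdrawal rats (SD, n = 6 each). The fitted log2 fold change of withdrawal vs. control was 0.27 (SE 0.098), and it did not pass the test (limma-voom, q = 0.136). Without surrogate variables it was 0.48 (q = 0.502) in limma-voom and 0.55 (q = 0.397) in edgeR, and the unadjusted difference of mean log2 CPM was 0.50 (two-sided exact permutation test, p = 0.141). The 2 highest rats were withdrawal rat 5 (56.2 CPM) and withdrawal rat 1 (34.95 CPM). Without them the withdrawal mean was 23.5 ± 5.82 CPM (n = 4), and a two-sided exact permutation test against control gave p = 0.524, whereas the model refitted without them gave a log2 fold change of 0.39 and passed (q = 0.0727). The level of Adcyap1 moved with that of cell type markers: over the 18 rats, which share groups and dissection, Pearson's r of its log2 CPM was 0.90 with the summed level of 16 interneuron markers and -0.88 with that of 3 CA3 markers. In the 15 rats other than ethanol rat 1 and withdrawal rats 1 and 5, these values were 0.82 and -0.77. The summed interneuron markers ranged from 738 to 921 CPM in control, 702 to 995 CPM in ethanol and 806 to 1246 CPM in withdrawal rats, and their part in the Adcyap1 level was not tested. In a bulk sample, more cells of a type and more RNA per cell cannot be told apart.

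**Figure D2:**
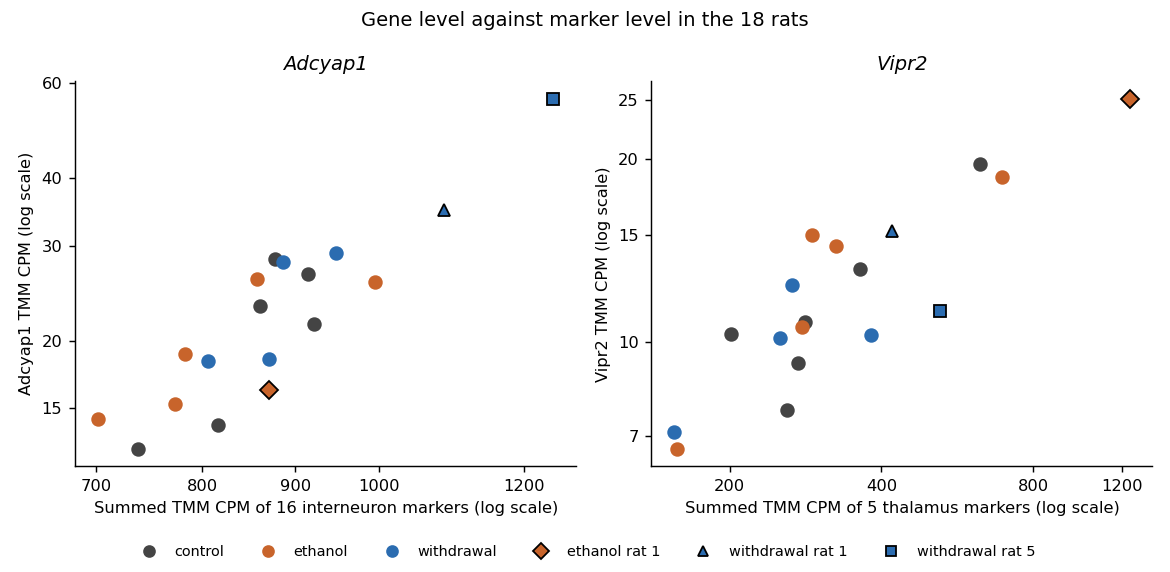
TMM CPM of Adcyap1 against the summed TMM CPM of 16 interneuron markers (left) and of Vipr2 against that of 5 thalamus markers (right), 1 point per rat, all axes logarithmic. Withdrawal rat 5 (56.2 CPM of Adcyap1) and ethanol rat 1 (25.1 CPM of Vipr2) are the highest points for both the gene and the markers.

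Between withdrawal and control rats, 2 of the 7 tested genes passed the test, Npy5r and Adcyap1r1, and both fell. Over all 17853 genes tested, 5.41% passed in that comparison, 2.85% as higher and 2.55% as lower. The promoters of these genes are shown because they were the genes called, together with that of Npy1r, the gene next to Npy5r on the opposite strand. Each is the 250 bases before the start in RefSeq on assembly GRCr8, 5' to 3' on the gene's strand, with each CG dinucleotide in capitals.
Npy5r (chr16:27821805-27822054, plus strand): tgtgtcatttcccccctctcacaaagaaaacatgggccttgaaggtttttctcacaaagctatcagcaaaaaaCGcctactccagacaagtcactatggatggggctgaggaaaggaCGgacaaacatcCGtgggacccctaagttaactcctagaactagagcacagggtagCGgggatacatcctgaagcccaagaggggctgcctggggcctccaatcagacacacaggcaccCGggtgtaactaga
Npy1r (chr16:27813388-27813637, minus strand): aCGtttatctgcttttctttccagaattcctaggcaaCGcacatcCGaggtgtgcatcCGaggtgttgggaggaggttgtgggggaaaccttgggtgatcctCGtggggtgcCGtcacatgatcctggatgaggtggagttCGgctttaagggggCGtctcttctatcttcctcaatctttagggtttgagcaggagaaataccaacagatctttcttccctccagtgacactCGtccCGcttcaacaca
Adcyap1r1 (chr4:85923921-85924170, plus strand): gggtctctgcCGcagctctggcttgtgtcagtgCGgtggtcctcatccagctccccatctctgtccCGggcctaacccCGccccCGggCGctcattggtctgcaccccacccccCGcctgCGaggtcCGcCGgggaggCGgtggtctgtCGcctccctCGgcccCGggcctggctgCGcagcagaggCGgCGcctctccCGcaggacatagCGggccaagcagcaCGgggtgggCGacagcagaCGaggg
The Npy5r window held 5 CG dinucleotides and 52.0% G and C, that of Npy1r 10 and 51.6%, and that of Adcyap1r1 22 and 73.2%, against a median of 14 and 58.4% over the 15511 tested genes with a promoter in the table. Among those genes, 19.5% had fewer than Npy5r and 75.0% had fewer than Adcyap1r1. The cyclic AMP response element TGACGTCA, its half-site TGACG, which the full element contains, and the STAT motif TTCNNNGAA were searched on both strands. The half-site was present once in the Npy1r window, as CGTCA from position -138, and once in that of Vipr1, as CGTCA from position -65, against 18.2% of all 33469 promoters and 24.3% of those of tested genes. The full element (1.59% of all promoters, 2.39% of those of tested genes) and the STAT motif (7.67% and 6.18%) were in none of the 8 windows, which says only that these letters are not there.

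Npy5r, the gene of the Y5 receptor, through which NPY promotes feeding, was lower in withdrawal rats. It lies on Rnor_6.0 chromosome 16 at 24796685 to 24805730 on the plus strand. Control rats ranged from 6.93 to 8.62 CPM with a median of 8.15, ethanol rats from 6.00 to 7.40 with a median of 6.81, and withdrawal rats from 4.85 to 7.96 with a median of 6.76. All 6 withdrawal rats lay below the control mean and 4 lay below every control rat, so the groups overlapped in 2 rats and in the lowest control rat. Means were 8.06 ± 0.593, 6.85 ± 0.521 and 6.59 ± 1.02 CPM in control, ethanol and withdrawal rats, from 149 to 323 counts per rat. The fitted log2 fold change of withdrawal vs. control was -0.29 (SE 0.077; limma-voom, q = 0.0590), and the two-sided exact permutation test on log2 CPM gave p = 0.00649, not adjusted. For ethanol vs. control it was -0.23 (SE 0.082), which did not pass the test (q = 0.267), although all 6 ethanol rats again lay below the control mean and 4 below every control rat (two-sided exact permutation test, unadjusted p = 0.00649). Both comparisons use the same control rats. Withdrawal and ethanol rats differed by -0.06 (SE 0.089, q = 0.761), with an interval of -0.24 to 0.11 at 2 SE.

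The lowest Npy5r value, 4.85 CPM, belonged to withdrawal rat 1, and without that rat the withdrawal mean was 6.94 ± 0.627 CPM (n = 5, two-sided exact permutation test against control, p = 0.0130). Without withdrawal rats 1 and 5 the withdrawal mean was 7.11 ± 0.577 CPM (n = 4, two-sided exact permutation test against control, p = 0.0286), but the model refitted without them gave a log2 fold change of -0.23 that did not pass (q = 0.206). Leaving out 1 rat at a time kept the sign in 18 of 18 fits and the call in 12. The call was lost without control rats 1 (q = 0.101), 3 (0.117), 5 (0.1003) and 6 (0.128) and without withdrawal rats 1 (0.120) and 6 (0.170), and it was also lost without surrogate variables (q = 0.240). The summed level of 4 endothelial markers, 160 to 193 CPM in control, 175 to 210 CPM in ethanol and 174 to 257 CPM in withdrawal rats, moved against Npy5r (r = -0.82 over 18 rats, -0.65 over 15 rats), and Pecam1 (q = 0.0257), Kdr (0.0268) and Flt1 (0.0629) of them were called higher in withdrawal, where 2.85% of all genes were. Without withdrawal rats 1 and 5, Pecam1 kept its call (q = 0.0608), and Kdr (0.116) and Flt1 (0.248) lost theirs. The summed level of 6 dentate markers, 363 to 416 CPM in control, 333 to 411 CPM in ethanol and 261 to 389 CPM in withdrawal rats, moved with Npy5r (r = 0.69 over 18 rats, 0.55 over 15 rats), and Prox1 of that list was called lower in withdrawal. The part of these cell types in the Npy5r level was not tested. The genes with the patterns most like Npy5r over the 18 rats were Cyb5r1 (r = 0.90), Msx3 (0.88) and Sri (0.85), none of which was among the 3 most alike by Spearman's rho.

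Npy1r, the gene of the postsynaptic Y1 receptor, lies beside Npy5r at 24779480 to 24789131 on the minus strand. Control rats ranged from 18.8 to 26.5 CPM, ethanol rats from 18.1 to 31.5 and withdrawal rats from 13.4 to 25.8, with medians of 24.5, 23.7 and 20.5. Group means were 23.3 ± 3.26, 23.9 ± 4.58 and 19.7 ± 4.33 CPM. The highest rat was ethanol rat 1 and the 2 lowest were withdrawal rats 1 and 5. The fitted log2 fold change of withdrawal vs. control, -0.19 (SE 0.095), did not pass the test (q = 0.276). Without withdrawal rats 1 and 5 the withdrawal mean was 22.1 ± 2.58 CPM. Over the 18 rats, Npy1r and Npy5r had r = 0.54, and 0.24 over the 15 rats.

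Npy2r, the gene of the presynaptic Y2 receptor (Rnor_6.0 chromosome 2, 181528949 to 181538145, minus strand), had the widest relative spread of the NPY receptors. Control rats ranged from 8.09 to 17.3 CPM with a median of 10.7, ethanol rats from 6.24 to 14.0 with a median of 8.97, and withdrawal rats from 4.68 to 13.1 with a median of 8.34. The withdrawal rats fell into no single range: rats 1, 4 and 5 lay below every control rat and rats 2, 3 and 6 among them. The fitted log2 fold change of withdrawal vs. control, -0.37 (SE 0.15), was further from 0 than that of Npy5r but did not pass the test (q = 0.184). Without withdrawal rat 2 it was -0.49 and passed (q = 0.0722), and no other rat's removal gave a call. Npy2r moved against the interneuron markers (r = -0.73) and with the dentate markers (r = 0.72), values that were -0.50 and 0.43 in the 15 rats other than ethanol rat 1 and withdrawal rats 1 and 5.

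**Figure D3:**
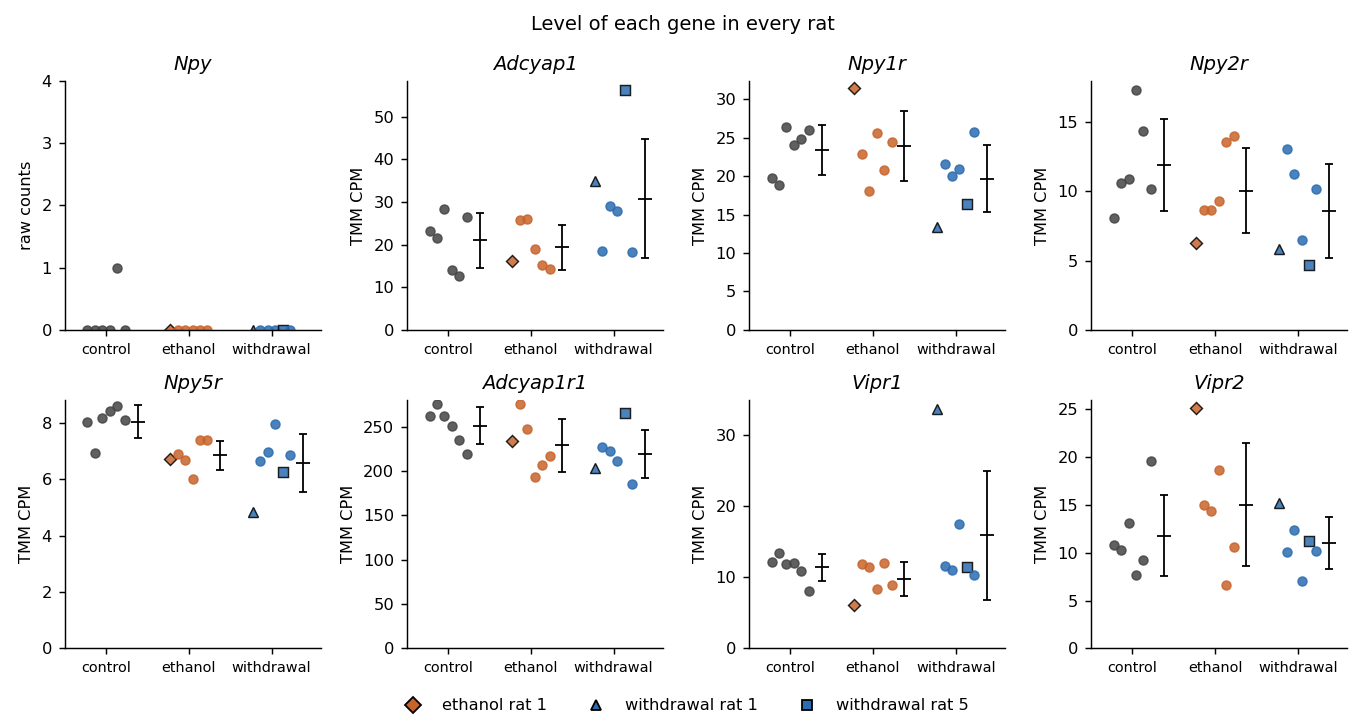
Level of each gene in every rat by group, as TMM CPM from 0 upward, or as raw counts for Npy; bars are mean ± SD of 6 rats, and marked symbols are ethanol rat 1 and withdrawal rats 1 and 5. All 12 ethanol and withdrawal rats lie below the control mean of 8.06 CPM in the Npy5r panel, and the highest Vipr1 value (33.7 CPM) belongs to withdrawal rat 1.

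Adcyap1r1, the gene of the PACAP-preferring receptor PAC1, had the highest level per kb of exon of the 7 tested genes and was the second called lower in withdrawal. It lies on Rnor_6.0 chromosome 4 at 85662809 to 85711696 on the plus strand. Control rats ranged from 219 to 276 CPM with a median of 256, ethanol rats from 194 to 276 with a median of 225, and withdrawal rats from 185 to 266 with a median of 217. Of the withdrawal rats, 5 of 6 lay below the control mean and 3 below every control rat, while withdrawal rat 5 was as high as the upper control rats. Means were 251 ± 20.8, 229 ± 29.98 and 219 ± 27.2 CPM, from at least 6262 counts per rat. The fitted log2 fold change of withdrawal vs. control was -0.25 (SE 0.072; limma-voom, q = 0.0755), and the two-sided exact permutation test gave an unadjusted p = 0.0476. The withdrawal mean was 222 ± 29.2 CPM without withdrawal rat 1 (n = 5, exact permutation p = 0.0909), 210 ± 16.5 CPM without withdrawal rat 5 (n = 5, exact permutation p = 0.0130) and 211 ± 18.7 CPM without both (n = 4, exact permutation p = 0.0286). The model refitted without both gave a log2 fold change of -0.19 that did not pass (q = 0.236), and without ethanol rat 1 as well it gave -0.22 and passed (q = 0.0855).

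The sign of the Adcyap1r1 difference was kept in all 18 fits that left out 1 rat, and the call in 10. It was lost without control rats 1 (q = 0.125), 2 (0.145), 3 (0.130), 4 (0.131) and 5 (0.112) and without withdrawal rats 1 (0.153), 3 (0.103) and 6 (0.230), and it was lost without surrogate variables (log2 fold change -0.20, q = 0.385). Ethanol vs. control gave -0.08 (SE 0.076, q = 0.720), and withdrawal vs. ethanol -0.17 (SE 0.081, q = 0.293). The genes most like Adcyap1r1 over the 18 rats were Panx2 (r = 0.88), Aldh1l1 (0.84) and Cys1 (0.84), and Aldh1l1 was also among the 3 most alike by Spearman's rho. Aldh1l1, a folate enzyme used as an astrocyte marker, was itself called lower in withdrawal (log2 fold change -0.41, SE 0.10, q = 0.0487). Of the 7 astrocyte markers, Aldh1l1 and Gja1 (-0.13, q = 0.0866) passed as lower and Gfap (0.54, q = 0.0775) and Sox9 (0.37, q = 0.0979) as higher, where 5.41% of all genes passed in either direction. Without withdrawal rats 1 and 5, Gfap passed and the other 3 did not. The summed astrocyte markers were 2895 to 3265 CPM in control, 2473 to 3261 CPM in ethanol and 2407 to 3987 CPM in withdrawal rats, with medians of 3165, 2843 and 3634, and had r = -0.39 with Adcyap1r1 over 18 rats and -0.28 over 15 rats. Gfap alone had means of 939, 797 and 1326 CPM within that sum in control, ethanol and withdrawal rats. Withdrawal rat 5 had the lowest sum and the highest Adcyap1r1 level of the withdrawal rats. With the CA1 and CA2 markers Adcyap1r1 had r = -0.42 over 18 rats and -0.70 over 15 rats, and with the CA3 markers -0.34 and -0.56. The part of these cell types in the Adcyap1r1 level was not tested.

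Vipr1, the gene of VPAC1 (Rnor_6.0 chromosome 8, 130283453 to 130313431, plus strand), was set apart by a single rat. Control rats ranged from 8.03 to 13.5 CPM with a median of 11.9, ethanol rats from 6.16 to 11.96 with a median of 10.2, and withdrawal rats from 10.3 to 33.7 with a median of 11.5. Withdrawal rat 1 had 33.7 CPM, and the next withdrawal rat 17.5. The withdrawal mean of 15.9 ± 9.06 CPM became 12.4 ± 2.89 without that rat, against 11.4 ± 1.85 in control rats. The fitted log2 fold change, 0.28 (SE 0.19, q = 0.431), was 0.03 without it. The same rat had the highest sum of activity-regulated genes, with which Vipr1 had r = 0.72 over 18 rats and 0.38 over 15 rats. Other lists lay further from 0 over the 15 rats. Vipr1 had r = -0.81 with the thalamus markers (-0.46 over 18 rats) and -0.73 with the choroid plexus markers (-0.38 over 18 rats). With the 30 genes of receptor coupling described below it had r = 0.80 (0.01 over 18 rats). The part of these lists in the Vipr1 level was not tested.

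Vipr2, the gene of VPAC2 (Rnor_6.0 chromosome 6, 143932960 to 144009476, plus strand), moved with the thalamus markers. Its levels were 7.70 to 19.6 CPM in control, 6.66 to 25.1 in ethanol and 7.09 to 15.2 in withdrawal rats, with medians of 10.52, 14.6 and 10.7. The highest control rat (rat 6) and the highest ethanol rat (rat 1) were also the rats with the highest thalamus sums of their groups, 628 and 1243 CPM. In withdrawal rats these were different animals, rat 1 for Vipr2 (15.2 CPM, thalamus sum 420 CPM) and rat 5 for the thalamus sum (522 CPM). Pearson's r with the summed level of the 5 thalamus markers was 0.88 over 18 rats and 0.86 over 15 rats. The part of thalamic tissue in the Vipr2 level was not tested. Neither comparison with control passed the test (ethanol 0.01, SE 0.13, q = 0.982; withdrawal -0.10, SE 0.13, q = 0.699).

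**Figure D4:**
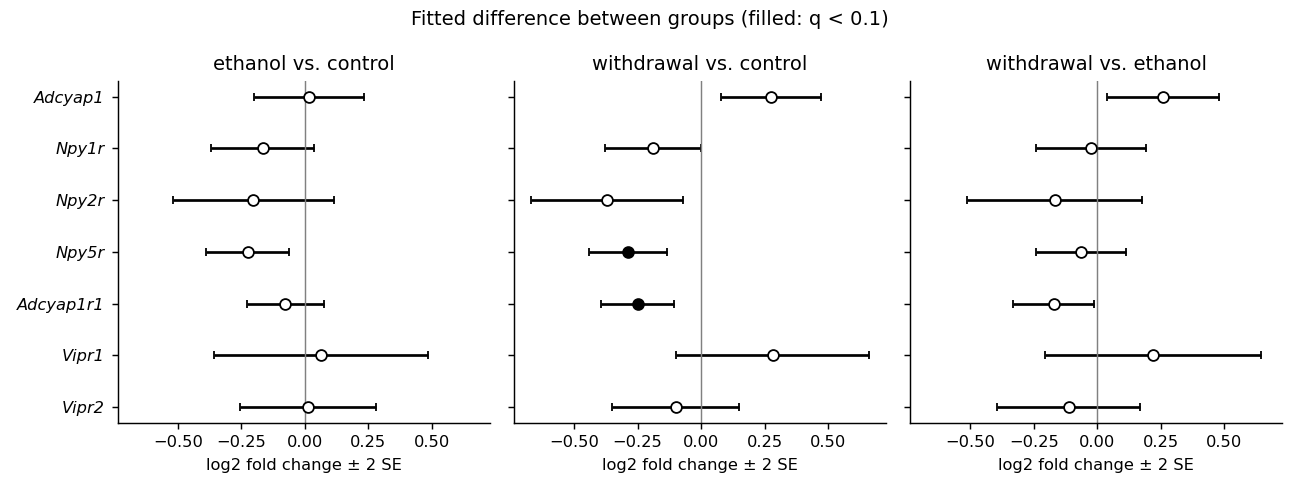
Fitted log2 fold change of the 7 tested genes in the 3 comparisons, with bars of 2 SE; filled points have q < 0.1. The filled points are Npy5r (-0.29) and Adcyap1r1 (-0.25) in withdrawal vs. control.

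Across the 3 comparisons, the 7 tested genes were called 0 times in ethanol vs. control, where 0.493% of all genes passed (0.336% higher, 0.157% lower), 2 times in withdrawal vs. control, and 0 times in withdrawal vs. ethanol, where 2.72% of all genes passed (1.23% higher, 1.49% lower; limma-voom, q < 0.1). At an unadjusted p under 0.05, 1, 4 and 2 of them passed, against 12.5%, 19.7% and 16.7% of all genes tested. DESeq2 and the quasi-likelihood test of edgeR, with surrogate variables, also called none in ethanol vs. control and none in withdrawal vs. ethanol. The median log2 fold change of the 7 genes was -0.08, -0.19 and -0.06 in the 3 comparisons, against 0.00 over all genes in each. No gene had groups that did not overlap in any comparison, a state found in 1.32%, 1.06% and 1.22% of all genes. In withdrawal vs. control the 3 NPY receptor genes had negative fitted values, while the PACAP side was mixed, with Adcyap1 and Vipr1 positive and Adcyap1r1 and Vipr2 negative. In ethanol vs. control the fitted value of Npy1r was -0.17, but its unadjusted means differed by 0.024 on the log2 scale in the other direction.

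Withdrawal and ethanol rats of the shared index set could be compared only as 2 rats against 6. There the mean of Npy5r was 5.76 against 6.85 CPM, that of Adcyap1 26.7 against 19.4, that of Adcyap1r1 215 against 229 and that of Vipr1 22.6 against 9.79. The 4 withdrawal rats of index set 3 had means of 7.01, 32.9, 221 and 12.6 CPM. The values of set 2 include withdrawal rat 1, which had the lowest Npy5r and the highest Vipr1 level, and the other withdrawal rat of set 2 lay inside the range of set 3 for Npy5r (6.67 against 6.26 to 7.96 CPM) and for Vipr1 (11.5 against 10.3 to 17.5 CPM). For Npy2r the withdrawal means were 9.46 CPM in set 2 and 8.15 CPM in set 3, against 10.1 CPM in ethanol rats, and withdrawal rat 2 (13.1 CPM) lay above the range of set 3 (4.68 to 11.2 CPM).

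Per kb of exon, Adcyap1r1 had the highest level of the 7 tested genes in control rats, Npy not being measured, at 38.0 ± 3.15 CPM per kb, followed by Npy1r at 7.39 ± 1.03 and Adcyap1 at 4.57 ± 1.41. Npy2r (3.55 ± 0.996), Vipr1 (2.48 ± 0.402), Npy5r (1.95 ± 0.144) and Vipr2 (1.75 ± 0.629) followed. Adcyap1r1 and Npy1r, and Npy1r and Adcyap1, lay further apart than 1 SD of each, whereas Adcyap1 and Npy2r overlapped within 1 SD, as did every neighbouring pair below them. Adcyap1r1 was also the highest of these in ethanol and withdrawal rats, and in withdrawal rats Adcyap1 (6.70 ± 3.04) and Npy1r (6.23 ± 1.37) could not be separated.

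**Figure D5:**
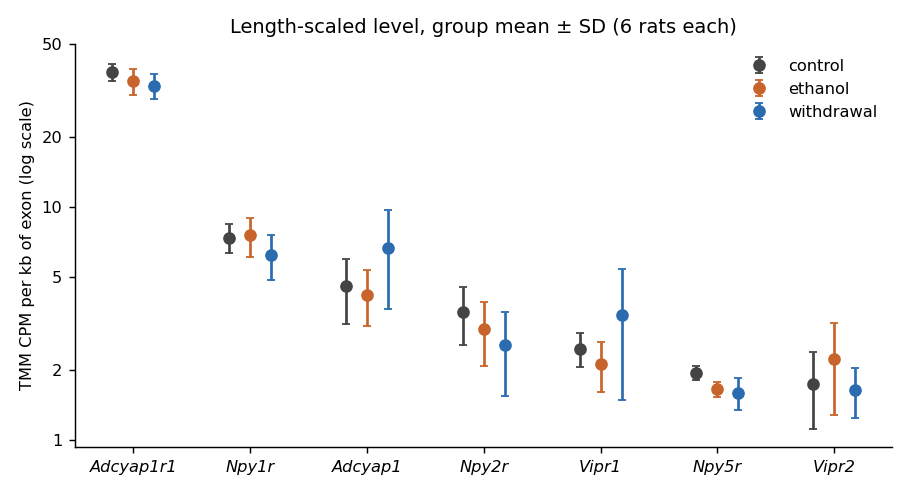
Mean ± SD of TMM CPM per kb of exon (log scale) for the 7 tested genes, by group, ordered by the control mean. Adcyap1r1 lies at 33.2 to 38.0 in the 3 groups, and every other gene below 8.

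The remaining genes of both peptide families were mostly too low to test. Vip, the other ligand of the VPAC receptors, was at 17.0 ± 1.12 CPM in control, 27.9 ± 17.5 in ethanol and 22.7 ± 5.78 in withdrawal rats, where the ethanol mean included a rat at 62.7 CPM, and it did not pass in any comparison (q = 0.513 to 0.839). Gipr, the receptor of a gut hormone of the same family, was at 7.41 ± 1.64, 6.13 ± 1.61 and 7.92 ± 2.00 CPM, and Dpp4, a peptidase that trims NPY, at 0.719 ± 0.200, 0.606 ± 0.179 and 1.12 ± 0.549 CPM. Glp1r and Ghrh passed the filter with group means under 0.4 CPM. Pyy, Npy4r, Sct, Sctr, Gcg, Gip and Ghrhr were under the filter, Ppy had 0 counts in all rats, and Npy6r had no row. Of the 14 genes, 5 were tested and 0 were called in any comparison by limma-voom, edgeR or DESeq2 with surrogate variables, with 0 at an unadjusted p under 0.05 in limma-voom.

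The machinery that makes, releases and reads out these peptides was described from lists, which were also chosen with results known. Of 13 genes of peptide processing and dense core vesicles, 12 were tested and 2 rose in withdrawal vs. control, where 2.85% of all genes passed as higher, with a median log2 fold change of 0.03 over the list. They were Pam, whose enzyme adds the C-terminal amide that NPY and PACAP need for activity (0.18, SE 0.037, q = 0.0226), and Vgf, a granin-like precursor of neurons (0.71, SE 0.21, q = 0.0784). Against ethanol rats, Pam (0.20, q = 0.0446) and Cadps, which primes dense core vesicles (0.20, q = 0.0895), rose, where 1.23% of all genes did. In ethanol vs. control 0 passed by limma-voom or edgeR and 2 by DESeq2 (Scg5 and Cadps), which called 3.0% of all genes with a q. By limma-voom, 2 had an unadjusted p under 0.05 there, against 12.5% of all genes. Of 30 genes of receptor coupling (G protein subunits, adenylyl cyclases, protein kinase A, CREB and GIRK channels), 1 passed, the adenylyl cyclase gene Adcy6, which rose in withdrawal vs. control (0.16, SE 0.048, q = 0.0933), with a list median of 0.03. A count of 1 in 30 is near the 2.85% of all genes called higher. Adcy6 passed in edgeR and DESeq2 as well.

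Some interneuron markers were called, but the list went in both directions. Of 16 interneuron markers, Crhbp (1.08, SE 0.19, q = 0.0195) and Cort (1.05, SE 0.22, q = 0.0258) rose in withdrawal vs. control, and Cort (1.31, q = 0.0346), Gad2 (0.35, q = 0.0578) and Crhbp (0.85, q = 0.0650) rose in withdrawal vs. ethanol, with list medians of 0.05 and 0.07, where 2.85% and 1.23% of all genes passed as higher. Fitted values were positive for 9 and negative for 7 of the 16 in withdrawal vs. control. In withdrawal vs. ethanol, 11 were positive and 5 negative. Crhbp binds the stress peptide CRH, Cort encodes a somatostatin-like peptide and Gad2 makes GABA. Of 13 activity-regulated genes, 1, Bdnf, rose in withdrawal vs. control (0.67, SE 0.20, q = 0.0868), where 2.85% of all genes did. In that comparison 12 of 13 had positive values with a median of 0.41, which was 0.13 with 9 of 13 positive without withdrawal rats 1 and 5. In ethanol vs. control 0 passed by limma-voom or edgeR and 2 by DESeq2 (Fos and Junb), which called 3.0% of all genes with a q. In that comparison 12 of 13 had positive limma-voom values with a median of 0.54, and 7 had an unadjusted p under 0.05 (12.5% of all genes). Those values were smaller without ethanol rat 5: the median was 0.22, with 11 of 13 positive and 0 at an unadjusted p under 0.05. The summed level of the list was 805 CPM in that rat and 271 to 402 CPM in the other ethanol rats, against 284 to 405 CPM in control rats. Without surrogate variables the median was also 0.22. In withdrawal vs. ethanol 4 of the 13 had positive values with a median of -0.25, and 0 passed, where 2.72% of all genes did. That median was -0.43 with 3 of 13 positive without withdrawal rats 1 and 5. It was 0.25 with 11 of 13 positive without ethanol rat 5, and 0.07 with 8 of 13 positive without surrogate variables. Avp of the hypothalamus list rose in withdrawal (1.12, q = 0.0949) at group means under 0.8 CPM, Pdgfra of the oligodendrocyte list rose by 0.14 (q = 0.0863), and Prox1 of the dentate list fell by 0.26 (q = 0.0968). Of the 24 tested microglia, CA1 and CA2, CA3, choroid plexus and thalamus markers, 0 passed in any comparison by limma-voom, while 3, 2 and 6 had an unadjusted p under 0.05 in ethanol vs. control, withdrawal vs. control and withdrawal vs. ethanol, against 12.5%, 19.7% and 16.7% of all genes. Of the 24, DESeq2 called Slc17a6 in ethanol vs. control, Amigo2 in withdrawal vs. control, and Slc17a6 and Tcf7l2 in withdrawal vs. ethanol, and it called 3.0%, 9.86% and 7.45% of all genes with a q in these comparisons. EdgeR called Slc17a6 in ethanol vs. control, where it called 0.538% of all genes.

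Many of these list calls changed without withdrawal rats 1 and 5. Of the 16 calls of list genes in withdrawal vs. control, 4 were kept in that fit (Gfap, Pecam1, Crhbp and Cort, q = 0.0829, 0.0608, 0.0481 and 0.0445) and 12 were lost. The lost calls were Pam (0.15, q = 0.104), Vgf (0.51, q = 0.202), Adcy6 (0.15, q = 0.218), Bdnf (0.39, q = 0.257), Aldh1l1 (-0.32, q = 0.154), Gja1 (-0.13, q = 0.206), Sox9 (0.40, q = 0.199), Kdr (0.51, q = 0.116), Flt1 (0.21, q = 0.248), Pdgfra (0.16, q = 0.115), Prox1 (-0.13, q = 0.368) and Avp (0.68, q = 0.399). Without ethanol rat 1 as well, 5 were kept, with Pdgfra (q = 0.0658) as the fifth. The highest withdrawal values of Bdnf and Vgf were those of withdrawal rat 1, and that of Avp was that of withdrawal rat 5. All 6 calls of list genes in withdrawal vs. ethanol were kept.

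The tested genes did not move as 1 group across rats. Over the 21 pairs, the pairs farthest from 0 were Npy1r with Vipr1 (r = -0.80) and Npy2r with Adcyap1 (r = -0.75), followed by Npy1r with Adcyap1 (r = -0.61). In the 15 rats other than ethanol rat 1 and withdrawal rats 1 and 5, these values were -0.56, -0.75 and -0.29, and Vipr1 with Vipr2 went from -0.35 to -0.65. The sign turned for Npy5r with Vipr1 (from -0.39 to 0.23) and for Adcyap1r1 with Vipr1 (from -0.03 to 0.37). Ligand and receptor of the PACAP pair, Adcyap1 and Adcyap1r1, had r = 0.25 over the 18 and over the 15 rats. These correlations are over rats that share groups, dissection and libraries and are descriptions only.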

How the data were processed

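RNA-Seq counts of dorsal hippocampus were analysed for 18 rats, with group and replicate number taken from the sample labels. The authors mapped paired reads to Rnor_6.0 (STAR 2.5.2a) and summarised them over exons with featureCounts 1.5.0, strand by strand, leaving out pairs with several mapping places. The deposited values are these raw counts. Of 38445 gene identifiers, 29322 were named from a RefSeq table of assembly GRCr8 and 9123 had no match. Other deposited columns used were exon positions and length.

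Counts were normalized by TMM (edgeR 4.0.16). The 17853 genes above 0.5 CPM in 1 or more rats entered limma 3.58.1 (voom, R 4.3.3) with 3 surrogate variables (sva 3.50.0, prior count 2), all groups in one model, with Benjamini-Hochberg adjustment within each comparison and a threshold of q < 0.1. The code was tested on simulated data. An exact permutation test (two-sided) on log2(CPM + 0.1) was added for single genes; its smallest p for 6 against 6 rats is 0.00216. Correlations use the same log2 scale. Alternatives included edgeR's quasi-likelihood test and DESeq2 1.42.0, and fits without withdrawal rats 1 and 5 and without ethanol rat 1 as well were chosen after seeing the data. Rats were separate animals.

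The 8 genes and all lists were chosen with earlier results of these data known. The text names them, every gene of both peptide family lists, genes of the other lists with q < 0.1 (at most the 4 lowest q per list and comparison), and for each called gene the 3 most alike by Pearson's r. As markers it also names Wfs1 and Prox1, and Fibcd1, Tdo2 and Iyd as list genes near 0. Wfs1, Fibcd1, Tdo2 and Iyd were chosen after their values were seen. No replicates were repeats of 1 library.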

Additional observations from a re-analysis of the deposited data

Results flagged for a closer look

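Of 21 groups of 6 rats (7 tested genes in 3 groups), 2 held a rat far from the others by Dixon's gap criterion, where chance alone gives about 1 in 20. The first was Npy5r in control rats: control rat 2 had 6.93 CPM, and its gap to the next control rat was 0.665 of the group's range. Without it the withdrawal vs. control difference of Npy5r was larger (log2 fold change -0.33, q = 0.0496, limma-voom). The second was Vipr1 in withdrawal rats: withdrawal rat 1 had 33.7 CPM, with a gap of 0.692 of the range. The causes of both values were not tested.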

How the results depend on the processing

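The count of called genes in withdrawal vs. control, 2, became 0 without surrogate variables under limma-voom or edgeR, 1 with 2 surrogate variables, 1 without a filter on low counts, 1 without withdrawal rats 1 and 5 (Adcyap1, q = 0.0727, while Npy5r at q = 0.206 and Adcyap1r1 at q = 0.236 were both lost), 2 without ethanol rat 1 as well (Adcyap1, q = 0.0566, and Adcyap1r1, q = 0.0855, but not Npy5r, q = 0.193), and 0 to 4 when 1 rat was left out. It was 1 in withdrawal vs. ethanol (Adcyap1, 0.37, q = 0.0911, and 0.38, q = 0.0784) without withdrawal rats 1 and 5, with or without ethanol rat 1, and 0 in ethanol vs. control under every alternative run. Adcyap1 also passed in withdrawal vs. control with DESeq2 (q = 0.0505), with sample quality weights (0.0477) and without withdrawal rat 2 (0.0674). With the replicate number as a block, 2 genes were called in withdrawal vs. control with surrogate variables (Npy5r, q = 0.0944; Adcyap1r1, q = 0.0535) and 0 without them. Rats with the same number are different animals whose deviations correlated between -0.325 and 0.383, so the block pairs nothing, and 4 of 18 same-number values were the best of their rat. Counts over all genes also moved: in ethanol vs. control, withdrawal vs. control and withdrawal vs. ethanol they were 88, 965 and 486, and 50, 41 and 621 without surrogate variables, 62, 33 and 682 with edgeR without them, 9, 486 and 166 without a filter, 473, 1624 and 1176 with DESeq2, 221, 1362 and 896 with 4 surrogate variables, 71, 594 and 260 with 2, 440, 1132 and 1073 with sample quality weights, 28, 1162 and 0 in models of only the 2 groups compared, 26, 914 and 1 with the block, 0, 0 and 14 with the block without surrogate variables, 404, 317 and 541 without withdrawal rats 1 and 5, and 532, 396 and 707 without ethanol rat 1 as well. Leaving out 1 rat gave 0 to 258, 23 to 1911 and 0 to 1800.

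Of 721 alternative fold changes of the 7 tested genes, 681 kept their direction and 40 reversed, all of values that had not passed. The genes of the marker lists were not part of this tally. In ethanol vs. control, the fits without surrogate variables (limma-voom, edgeR, block) and the unadjusted means gave 0.024, 0.033, 0.020 and 0.024 for Npy1r, -0.10, -0.12, -0.093 and -0.093 for Adcyap1 and -0.24, -0.22, -0.28 and -0.24 for Vipr1. Adcyap1 was -0.0027 with 4 surrogate variables, Vipr1 -0.015 and Vipr2 -0.033 with 2, and Vipr2 -0.00060 with the block. In withdrawal vs. control, Vipr2 was 0.13 without withdrawal rats 1 and 5 and 0.15 without ethanol rat 1 as well. In withdrawal vs. ethanol, Npy1r was 0.027 with sample quality weights and 0.057 and 0.060 in those fits, and Vipr2 0.097 and 0.11. Leaving out 1 rat gave -0.045 to 0.076 for Adcyap1, -0.0063 to 0.20 for Vipr1 and -0.059 to 0.12 for Vipr2 in ethanol vs. control, -0.17 to 0.039 for Vipr2 in withdrawal vs. control, and -0.088 to 0.11 for Npy1r, -0.30 to 0.026 for Npy2r and -0.29 to 0.066 for Vipr2 in withdrawal vs. ethanol. The causes were not tested. Npy, with 1 count, entered only the fit without a filter on low counts, whose values for it (q = 0.605 to 0.917) measure no level.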

Other observations

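The arrangement seen at Npy was looked for across the annotation, after its values were seen. There were 34 pairs of genes on 1 strand of 1 chromosome, with starts within 50 kb, no overlap, as many exons (3 or more) and at most 1 exon of unequal length. The pairs are not separate, since 5 genes stand in more than 1 of them, and they hold 63 distinct genes. Of these genes, Npy included, 46 had at most 1 count over the 18 rats. Of all 38445 genes, 9120 had 0 counts and 1685 had 1 count. Which of these genes are transcribed in this tissue was not tested.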
